A study of Mus musculus with 25 samples.

Results

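A group of 42 listed genes for the non-collagen extracellular matrix was followed through the growth and the rescue of pituitary tumors in sh*Rb* mice. The list holds small and large proteoglycans, fibulins, elastic fibre and microfibril proteins, lysyl oxidases, latent TGF-beta binding proteins, matricellular and basement membrane glycoproteins, and 4 genes that mark mesenchyme (*Pdgfra*, *Vim*, *S100a4* and *Twist1*). All 42 symbols were among the 15315 genes of the long-term table, and 39 were among the 14007 genes of the short-term table, where *Bgn*, *Mfap5* and *Twist1* were not analysed here. These mice carry an rtTA driven broadly from the *Rosa26* locus, which in the presence of doxycycline (dox) turns on a GFP-linked shRNA that depletes *Rb* mRNA, and RB can return once dox is withdrawn. The shRNA cassette sits at the *Col1a1* locus, and every sequenced mouse carried both transgenes and had received dox. In the long-term experiment (libraries enriched for poly(A) RNA), pituitaries were taken after 6 weeks of dox (6w+dox, 3 females), after 12 weeks of dox (12w+dox, replicates 1 and 2 female, 3 and 4 male) and after 6 weeks of dox followed by 6 weeks without it (12w-res, replicates 1 and 2 male, 3 to 5 female). In the short-term experiment (libraries depleted of rRNA), dox was given for 16 weeks (16w +dox, 3 males) and then withheld for 1 day (1d -dox, 4 females), 3 days (3d -dox, 3 males) or 5 days (5d -dox, 3 females). The labels give sex but not age, and do not say whether mice shared a litter or a batch.

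The extracellular matrix is the protein and sugar scaffold between cells. Fibroblasts, pericytes and smooth muscle cells secrete most of its interstitial part, in which elastin is laid down on fibrillin microfibrils and joined by lysyl oxidases, while small leucine-rich proteoglycans coat collagen fibrils. Endothelial cells and their pericytes build basement membranes from nidogens, perlecan and type IV collagen, and the pituitary is a densely vascular gland whose hormone cells lie against such membranes.

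Levels are given as FPM, reads scaled to library size with DESeq2 size factors, and differences as the change in log2(FPM + 0.5). A gene was called higher or lower where limma's adjusted p (Benjamini-Hochberg over all genes tested) was under 0.05 and the absolute difference was over 1, and only called genes are said to have risen or fallen. Libraries held 19066053 to 28968476 reads on genes in the long-term experiment and 9573101 to 13036900 in the short-term one. No member was at 0 reads in any mouse, with 8 reads (*Emilin2*) as the lowest long-term count and 2 (*Mfap4*) as the lowest short-term count. *Rb1*, the targeted gene, averaged 3.16 and 3.21 FPM in the 6w+dox and 12w+dox groups against 18.2 FPM in 12w-res, and was not called in any short-term comparison. *Pomc*, the hormone precursor of melanotrophs and corticotrophs, took 12.9% to 43.2% of the long-term reads. Its share was 13.6% to 32.2% at 6w+dox, 12.9% to 23.0% at 12w+dox and 39.1% to 43.2% in 12w-res.

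Per kilobase of the longest annotated transcript, the members spanned a wide range of levels. At 6w+dox, *Sparcl1*, a SPARC relative made by many stromal and endothelial cells, came first with 159.9 FPM per kb. *Sparc*, a collagen-binding matricellular protein, came next with 45.8, followed by the microfibril protein gene *Mfap2* with 32.2 and the fibulin gene *Efemp1* with 25.0. The lowest were *Emilin2* (0.149 FPM per kb) and *Ltbp2* (0.124 FPM per kb). In 12w-res, *Sparcl1* was again first (244 FPM per kb), and *Sparc* (118), *Bgn* (54.3) and *Vim* (52.9) came after it. *Pdgfra* (0.546) and *Vcan* (0.397) were the lowest there, on the same scale.

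Upstream sequence is shown for 3 members that the results turn on, *Ltbp2*, *Tnc* and *Sparc*. *Ltbp2* had the largest rise of any member in 12w-res against 12w+dox. *Tnc* had a large rise with wide spread among 12w+dox mice, and *Sparc* was called in the long-term and in the short-term experiment. RefSeq promoters of GRCm38.p6, from 250 bases before to 50 after an annotated start, were at hand for 28 of the 42 members, and the more upstream of the *Tnc* starts is printed. Capitals mark the letters of a GC box, GGGCGG, or of a TATA box on either strand, the latter spelled TATAAA, all sequences run 5′ to 3′ on the strand of the gene, and all 3 genes lie on the minus strand.
Ltbp2 promoter chr12:84876442-84876741: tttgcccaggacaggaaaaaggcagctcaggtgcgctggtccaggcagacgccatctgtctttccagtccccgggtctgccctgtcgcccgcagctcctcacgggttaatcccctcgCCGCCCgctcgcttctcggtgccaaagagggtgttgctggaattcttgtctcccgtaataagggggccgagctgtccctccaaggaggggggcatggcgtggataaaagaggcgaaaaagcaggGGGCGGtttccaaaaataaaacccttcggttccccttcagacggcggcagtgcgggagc
Tnc promoter chr4:64046966-64047265: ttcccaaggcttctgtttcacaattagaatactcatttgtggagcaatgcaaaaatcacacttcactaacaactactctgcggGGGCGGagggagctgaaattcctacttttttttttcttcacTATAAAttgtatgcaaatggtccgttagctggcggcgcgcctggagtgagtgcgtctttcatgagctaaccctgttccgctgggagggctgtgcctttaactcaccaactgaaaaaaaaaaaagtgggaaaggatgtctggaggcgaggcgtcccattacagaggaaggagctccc
Sparc promoter chr11:55420031-55420330: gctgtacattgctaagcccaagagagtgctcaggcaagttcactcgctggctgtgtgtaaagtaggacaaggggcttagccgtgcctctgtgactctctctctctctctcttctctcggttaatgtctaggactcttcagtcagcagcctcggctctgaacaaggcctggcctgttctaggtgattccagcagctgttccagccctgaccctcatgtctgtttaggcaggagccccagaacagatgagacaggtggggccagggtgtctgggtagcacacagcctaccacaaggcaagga

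The *Ltbp2* window holds GGGCGG on both strands, the *Tnc* window holds GGGCGG and TATAAA, and the *Sparc* window holds neither. GGGCGG was found, on either strand, in 35.7% of the 32851 RefSeq promoters and in the promoters of 18 of the 28 members. TATAAA was found in 13.6% and in 7 of the 28 (*Ecm1*, *Postn*, *S100a4*, *Thbs2*, *Tnc*, *Twist1* and *Vim*). The percentages count promoters, while a member counts once if any of its promoters matches, so these shares are not like for like. The E2F-type letters TTTGGCGC, TTTCCCGC and TTTCGCGC, searched because RB binds E2F factors, were in 0.514%, 1.07% and 0.323% of all promoters and in 0 of the 28 members' windows, which says only that these letters are not in these windows.

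More members were called after long-term dox withdrawal than in any other comparison, and all of those calls were increases. Of the 42 members, 28 rose and 0 fell in 12w-res against 12w+dox, where 6.24% of all 15315 genes were called higher and 5.04% lower. The median difference of the members was 1.26 against 0.00 over all genes, edgeR and DESeq2 also called 28 higher and 0 lower, and 2 members were lower at an unadjusted p under 0.05 in limma's fit. In 29 members every 12w-res mouse was above every 12w+dox mouse and in 1 (*Agrn*) every one was below, where 17.1% and 17.4% of all genes separated in these directions. All 8 roles held members that rose, from 3 of 3 small leucine-rich proteoglycans and 7 of 10 matricellular glycoproteins to 2 of 5 fibulins. In a bulk sample, fewer cells of a type and less RNA per cell cannot be told apart, and this holds for each result here. With libraries scaled to their total reads, the median of all genes in this comparison moved to -0.61. Under this scaling 13 members were called higher and 2 (*Mfap2* and *Agrn*) lower, while the median of the members was 1.26 above that of all genes. The 15 rises lost were those of *Dcn*, *Eln*, *Emilin1*, *Fbln2*, *Fbn1*, *Hspg2*, *Loxl1*, *Loxl3*, *Mfap4*, *Nid1*, *Nid2*, *Pdgfra*, *Sparc*, *Thbs2* and *Twist1*.

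Between 6 and 12 weeks of dox, 2 members rose (*Fn1* and *Emilin2*) and 8 fell (*Lum*, *Dcn*, *Pdgfra*, *Efemp1*, *Loxl1*, *Ltbp1*, *Vcan* and *Fbln2*), beside 3.15% and 4.04% of all genes. The groups did not overlap for 3 members that were higher and 12 that were lower at 12w+dox, where 12.9% and 12.4% of all genes separated in this way. The median difference of the members was -0.23, and with libraries scaled to their totals it turned to 0.07 while that of all genes became 0.29. It was -0.01 without 12w+dox replicate 3, -0.13 without 6w+dox replicate 1 and -0.08 with sex as a covariate. All 6w+dox mice were female, and among females alone 1 member was called higher (*Fn1*) and 5 lower, while with sex as a covariate 2 were called higher and 6 lower, the calls lost being *Fbln2* and *Vcan*. Without 12w+dox replicate 2, 5 members were called lower, and *Fbln2*, *Ltbp1* and *Vcan* were the calls lost.

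In 12w-res against 6w+dox, 18 members rose and 2 fell (*Mfap2* and *Efemp1*), beside 5.81% and 5.82% of all genes, with a median difference of 0.68 against -0.02 over all genes. For 19 members all 12w-res mice were higher and for 3 all were lower, where 16.9% and 15.9% of all genes separated. Among females alone 20 members were called higher and 2 lower in this comparison. The call of *Efemp1* was lost without 12w-res replicate 4 and without replicate 5, each of which left 1 member called lower. The 3 long-term comparisons share their mice, so their values stand side by side below as descriptions of the same 12 libraries.

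**Figure D1:**
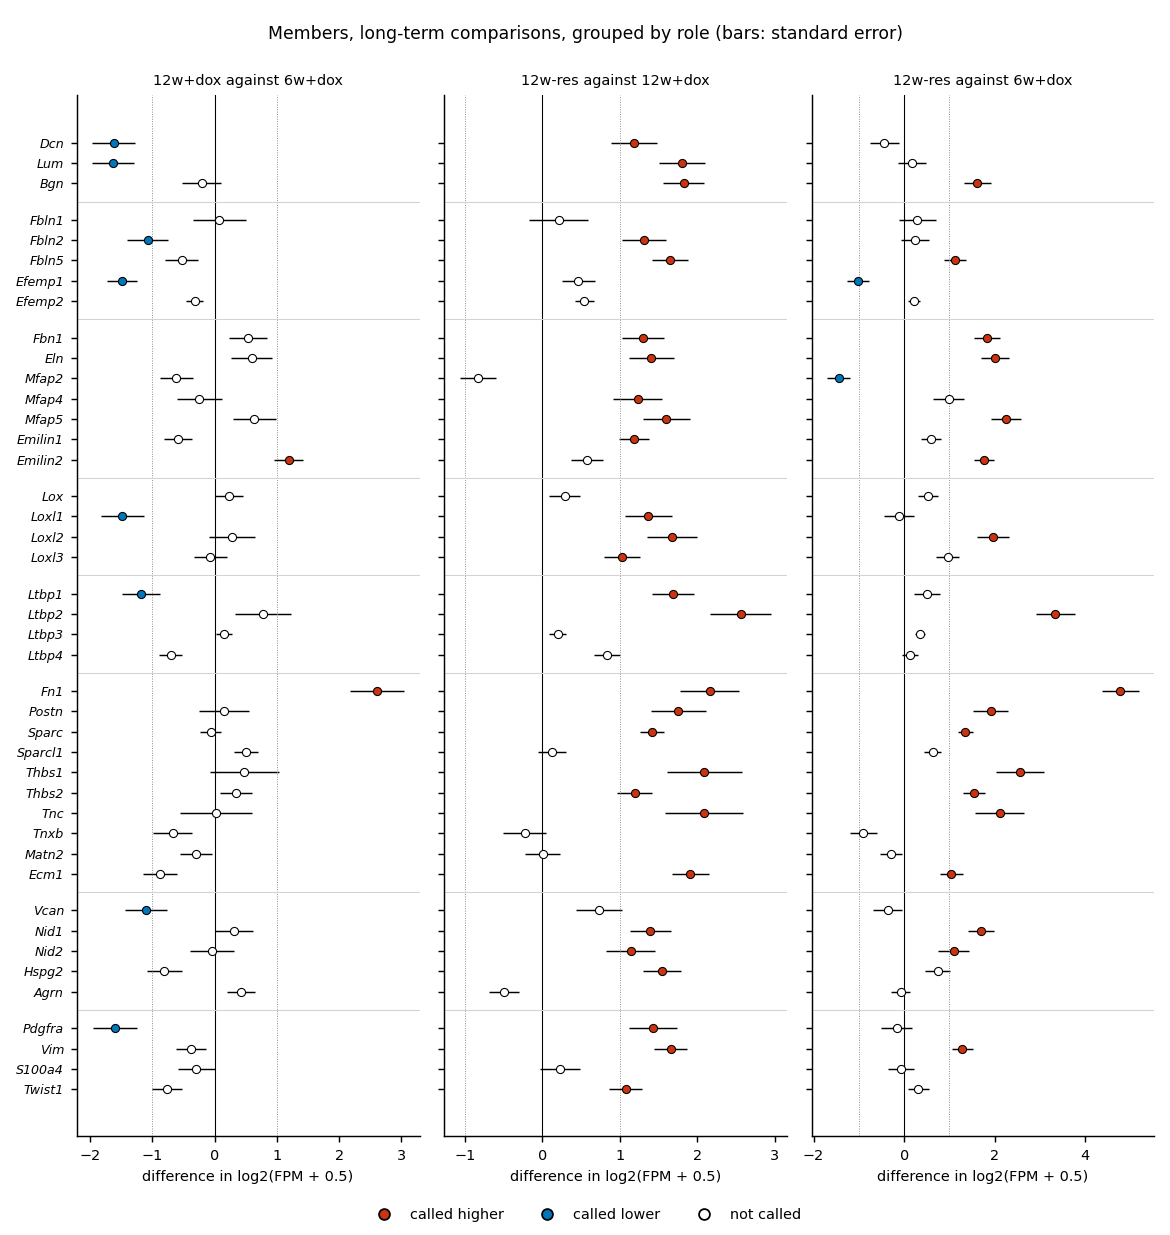
Difference in log2(FPM + 0.5) of each of the 42 members (rows, grouped by role) in the 3 long-term comparisons (panels, with their own x ranges). Points are limma estimates, bars are standard errors, red and blue mark genes called higher and lower, and dotted lines mark a difference of 1. A reader should see 28 red points in the middle panel, 8 blue points in the left panel and *Fn1* as the point farthest to the right in the left and right panels.

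*Fn1* encodes fibronectin, an adhesive glycoprotein that binds integrins and organizes other matrix proteins, and it moved in the same direction in each long-term comparison. Its levels (chr1:71585473-71653280, GRCm38.p6) were 5.18, 6.73 and 5.67 FPM at 6w+dox, 51.2, 28.8, 17.9 and 78.9 at 12w+dox and 109.9, 100.9, 226, 227 and 266 in 12w-res. None of the 3 groups overlapped, and within 12w-res both males were below all 3 females. *Fn1* rose by 2.61 (SE 0.43, adjusted p = 0.00139) from 6w+dox to 12w+dox. The difference between 12w-res and 12w+dox was 2.16 (SE 0.38, adjusted p = 5.95e-04), and that between 12w-res and 6w+dox was 4.77 (SE 0.41, adjusted p = 1.37e-06). Periostin (*Postn*), a matricellular protein of fibroblasts, was at 7.57, 7.22 and 4.35 FPM at 6w+dox, 14.4, 6.35, 3.14 and 7.79 at 12w+dox and 20.4, 15.3, 36.05, 21.8 and 36.9 in 12w-res. The groups at 6 and 12 weeks of dox overlapped and 12w-res lay above both. *Postn* rose by 1.75 (SE 0.35, adjusted p = 0.00164) against 12w+dox and by 1.91 (SE 0.39, adjusted p = 0.00188) against 6w+dox. *Ecm1*, a secreted glycoprotein that binds perlecan and other matrix proteins, was at 10.1, 9.44 and 6.79 FPM at 6w+dox, 4.64, 4.52, 3.08 and 6.31 at 12w+dox and 13.2, 13, 22.6, 21.2 and 25.5 in 12w-res, with no overlap between any pair of groups. Its rise against 12w+dox was 1.91 (SE 0.24, adjusted p = 3.68e-05).

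Thrombospondin-1 (*Thbs1*) and tenascin-C (*Tnc*), which modulate adhesion and are known to be induced at sites of tissue remodelling, varied widely among the 12w+dox mice. *Thbs1* stood at 15.3, 13.9 and 15.6 FPM at 6w+dox, 58.6, 13.9, 5.82 and 38.6 at 12w+dox and 93.4, 52.1, 131, 93.2 and 103 in 12w-res. For *Tnc* the levels were 2.97, 4.59 and 4.80 FPM at 6w+dox, 13.6, 2.36, 0.924 and 7.34 at 12w+dox and 21.6, 11.4, 27.2, 21.0 and 17.9 in 12w-res. In both genes 12w+dox replicates 1 and 4 were far above replicates 2 and 3, and replicate 1 was above the lowest 12w-res mouse, which made them the only called members of the rescue comparison whose groups overlapped. *Thbs1* rose by 2.09 (SE 0.49, adjusted p = 0.00409) against 12w+dox and by 2.57 (SE 0.53, adjusted p = 0.00217) against 6w+dox. *Tnc* rose by 2.09 (SE 0.50, adjusted p = 0.00520) and 2.11 (SE 0.55, adjusted p = 0.00921) in these comparisons, and its first call was lost among females alone. *Sparc* (chr11:55394159-55420080) was at 103, 110.2 and 103 FPM at 6w+dox, 130.1, 82.3, 79.4 and 121 at 12w+dox and 293, 216, 284, 273 and 291 in 12w-res. Its dox-treated groups overlapped and every 12w-res mouse was well above them. *Sparc* rose by 1.42 against 12w+dox and by 1.35 against 6w+dox (adjusted p = 8.67e-06 and 3.31e-05). *Thbs2*, the second thrombospondin listed, rose by 1.19 and 1.53 (adjusted p = 0.00103 and 3.30e-04). *Sparcl1*, *Tnxb* (tenascin-X) and *Matn2* (matrilin-2) were called in no long-term comparison. *Tnxb* was at 109, 111 and 136 FPM at 6w+dox and 59.5, 60.3, 69.3, 55.1 and 71.6 in 12w-res, without overlap, and its difference of -0.90 (SE 0.30, adjusted p = 0.0326) was under the minimum but was called lower with the replicate number as a block and with libraries scaled to totals.

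**Figure D2:**
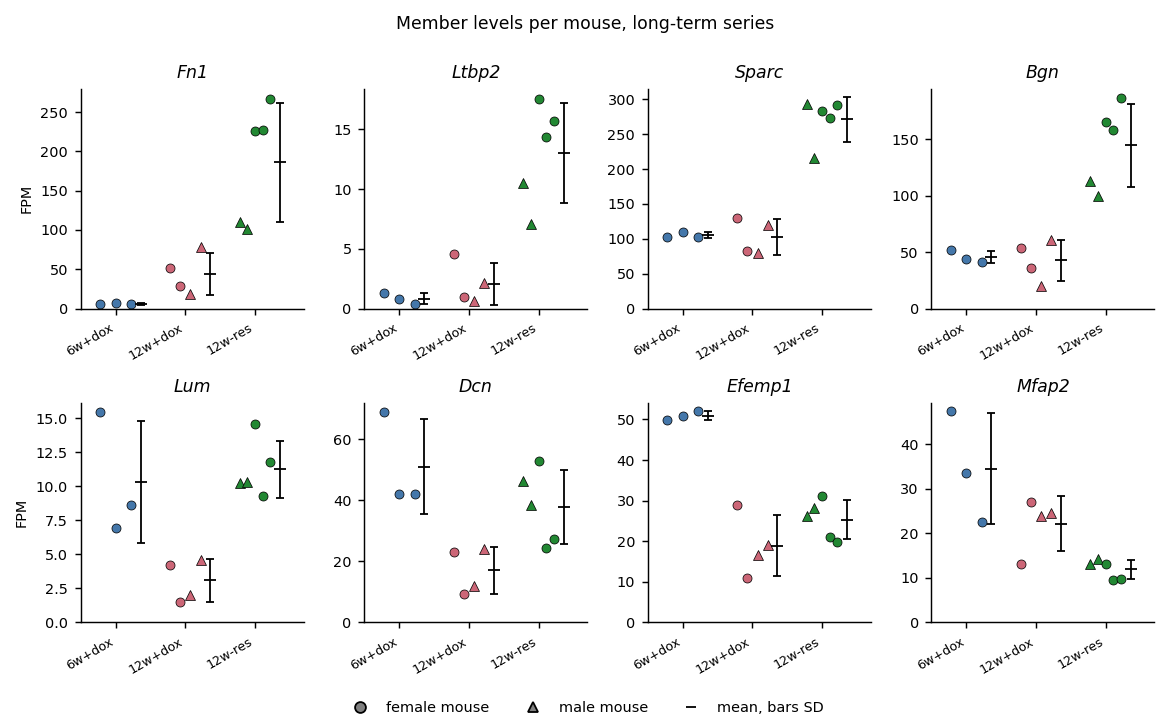
Level (FPM, y axis from 0, own range per gene) of 8 members in each long-term mouse by group. Circles are females, triangles are males, and the bar beside each group is the mean with SD. *Fn1*, *Ltbp2*, *Sparc* and *Bgn* are highest in 12w-res, *Lum*, *Dcn* and *Efemp1* are lowest in 12w+dox by group mean, and *Mfap2* is lowest in 12w-res.

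Latent TGF-beta binding proteins tether the latent growth factor or, in the case of LTBP-2, bind fibrillin microfibrils, and *Ltbp2* had the largest difference of any member in the rescue comparison. *Ltbp2* (chr12:84783212-84876558) was at 1.34, 0.802 and 0.373 FPM at 6w+dox, 4.54, 0.991, 0.647 and 2.15 at 12w+dox and 10.5, 7.08, 17.5, 14.3 and 15.7 in 12w-res. Every 12w-res mouse was above every other mouse, and *Ltbp2* rose by 2.57 (SE 0.39, adjusted p = 2.11e-04) against 12w+dox. Against 6w+dox, where 1 mouse had fewer than 10 reads, the rise was 3.34 (SE 0.43, adjusted p = 5.48e-05). *Ltbp1*, which anchors latent TGF-beta in the matrix, was at 10.4, 7.22 and 9.36 FPM at 6w+dox, 6.59, 2.24, 2.37 and 4.78 at 12w+dox and 13.9, 9.99, 17.2, 13.05 and 11.2 in 12w-res. The 12w+dox mice lay below both other groups, which overlapped. *Ltbp1* fell by 1.18 (SE 0.31, adjusted p = 0.0149) between 6 and 12 weeks of dox. This call was lost among females alone, with libraries scaled to totals and with only the groups compared. It was also lost without 12w+dox replicate 2 and without 6w+dox replicate 1. In 12w-res against 12w+dox *Ltbp1* rose by 1.69 (SE 0.27, adjusted p = 2.84e-04). *Ltbp3* and *Ltbp4* were not called, and *Ltbp4* had differences of -0.70 and 0.83 in these comparisons, with adjusted p of 0.0175 and 0.00142 but under the minimum difference.

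The small leucine-rich proteoglycans bind collagen fibrils and set their spacing. *Lum* (lumican, chr10:97565501-97572703) was at 15.4, 6.95 and 8.65 FPM at 6w+dox, 4.22, 1.49, 2.03 and 4.61 at 12w+dox and 10.2, 10.3, 14.6, 9.27 and 11.8 in 12w-res. *Dcn* (decorin, chr10:97479500-97518163), which lies beside it on chromosome 10, was at 68.9, 41.9 and 42.1 FPM at 6w+dox, 23.1, 9.30, 11.8 and 24.2 at 12w+dox and 46.4, 38.6, 52.7, 24.4 and 27.3 in 12w-res. For both genes the 12w+dox mice were below every other mouse and the 6w+dox and 12w-res mice overlapped. *Lum* fell by 1.63 (SE 0.33, adjusted p = 0.00471) at 12w+dox and rose by 1.81 (SE 0.29, adjusted p = 3.22e-04) in 12w-res against 12w+dox. *Dcn* fell by 1.62 (SE 0.34, adjusted p = 0.00529) at 12w+dox. The call of its rise of 1.18 in 12w-res (adjusted p = 0.00667) was lost among females alone, with libraries scaled to totals and without 12w+dox replicate 2. *Bgn* (biglycan) was at 51.9, 44.4 and 41.3 FPM at 6w+dox, 53.7, 36.03, 20.4 and 60.8 at 12w+dox and 113, 99.96, 166, 158 and 186 in 12w-res. It did not follow the pattern of the other small proteoglycans at 12 weeks of dox, where its groups overlapped, and 12w-res lay above all dox-treated mice. *Bgn* rose by 1.82 (SE 0.27, adjusted p = 1.50e-04) against 12w+dox and by 1.61 (SE 0.29, adjusted p = 8.62e-04) against 6w+dox.

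Lysyl oxidases crosslink collagen and elastin. *Loxl1*, which is needed for elastic fibre upkeep, was at 29.5, 40.0 and 38.9 FPM at 6w+dox, 20.4, 9.33, 6.38 and 19.7 at 12w+dox and 41.5, 21.9, 42.1, 27.7 and 37.2 in 12w-res. Its 12w+dox mice were below all others and the other groups overlapped. *Loxl1* fell by 1.48 (SE 0.34, adjusted p = 0.00899) at 12w+dox and rose by 1.37 in 12w-res (adjusted p = 0.00292). *Loxl2*, which acts on type IV collagen of basement membranes, was at 4.25, 5.43 and 3.10 FPM at 6w+dox, 9.80, 3.85, 2.28 and 7.85 at 12w+dox and 16.6, 12.7, 22.7, 18.7 and 19.0 in 12w-res, where all mice were above the rest. *Loxl2* rose by 1.68 (SE 0.32, adjusted p = 0.00120) against 12w+dox and by 1.96 (SE 0.35, adjusted p = 8.24e-04) against 6w+dox. *Loxl3* rose by 1.03 against 12w+dox (adjusted p = 0.00397), just over the minimum. The call was lost with a pseudocount of 1, with the replicate number as a block and with libraries scaled to totals. It was also lost without 12w+dox replicate 2 or 12w-res replicate 5. *Lox* itself was called in no comparison.

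Among the elastic fibre and microfibril genes, 5 of 7 rose in 12w-res against 12w+dox and 4 of 7 rose against 6w+dox. Elastin (*Eln*) was at 9.78, 3.07 and 6.04 FPM at 6w+dox, 9.35, 8.69, 5.91 and 12.9 at 12w+dox and 17.2, 19.3, 30.4, 29.2 and 29.7 in 12w-res. Fibrillin-1 (*Fbn1*), the backbone of microfibrils, was at 11.3, 6.95 and 9.02 FPM at 6w+dox, 21.4, 9.79, 7.27 and 19.3 at 12w+dox and 29.4, 28.4, 40.4, 30.3 and 38.5 in 12w-res. In both, 12w-res lay above all dox-treated mice, and against 6w+dox *Eln* rose by 2.01 (SE 0.32, adjusted p = 3.04e-04). The rise of *Fbn1* in that comparison was 1.83 (SE 0.29, adjusted p = 3.36e-04). *Mfap5*, a microfibril-associated glycoprotein, was at 0.990, 1.38 and 0.497 FPM at 6w+dox, 1.5, 1.75, 1.63 and 1.90 at 12w+dox and 3.59, 4.07, 7.37, 6.20 and 12.8 in 12w-res, and rose by 2.24 (SE 0.33, adjusted p = 1.85e-04) against 6w+dox. Its lowest 12w-res mouse was above the highest dox-treated mouse. *Emilin2* was at 0.699, 0.356 and 0.704 FPM at 6w+dox, 1.71, 2.04, 2.002 and 2.07 at 12w+dox and 3.28, 2.64, 4.87, 2.42 and 2.98 in 12w-res, so that it was already above the 6w+dox mice at 12 weeks of dox. It rose by 1.19 (SE 0.24, adjusted p = 0.00393) at 12w+dox, a call lost among females alone and with a pseudocount of 1, and by 1.77 (SE 0.23, adjusted p = 5.14e-05) in 12w-res against 6w+dox. *Mfap2* went the other way, at 47.4, 33.7 and 22.5 FPM at 6w+dox, 13.1, 27.2, 23.9 and 24.7 at 12w+dox and 13.1, 14.2, 13.2, 9.51 and 9.84 in 12w-res. All 12w-res mice were below all 6w+dox mice, and *Mfap2* fell by 1.45 (SE 0.26, adjusted p = 7.40e-04).

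Fibulins link elastic fibres and basement membranes. *Efemp1* (fibulin-3, chr11:28853154-28926743) was at 49.95, 50.95 and 52.03 FPM at 6w+dox, 28.9, 11.05, 16.7 and 19.1 at 12w+dox and 26.1, 28.2, 31.2, 21.0 and 19.8 in 12w-res. Every 6w+dox mouse was above every other mouse and the later groups overlapped. *Efemp1* fell by 1.49 (SE 0.24, adjusted p = 0.00136) at 12w+dox, and in 12w-res it was lower than at 6w+dox by a difference of -1.02 (SE 0.23, adjusted p = 0.00424). *Fbln2* fell by 1.07 (SE 0.33, adjusted p = 0.0314) at 12w+dox, from 15.9, 7.84 and 12.8 FPM to 7.19, 4.43, 3.48 and 7.04, and stood at 9.15, 9.67, 15.6, 18.4 and 20.6 in 12w-res. The call of its fall was lost with sex as a covariate, among females alone, with libraries scaled to totals and with only the groups compared. It was also lost without 12w+dox replicate 2 or 3 or 6w+dox replicate 1 or 3. In 12w-res against 12w+dox *Fbln2* rose, and that call was lost with libraries scaled to totals. *Fbln5*, which guides elastin onto microfibrils, was at 7.63, 4.90 and 4.22 FPM at 6w+dox, 4.75, 3.18, 2.43 and 4.496 at 12w+dox and 10.6, 8.98, 16.4, 13.2 and 14.1 in 12w-res, above all dox-treated mice. It rose by 1.65 (SE 0.23, adjusted p = 1.04e-04) against 12w+dox. *Fbln1* was called nowhere, and in 12w-res its males (6.50 and 6.76 FPM) were below its females (16.2, 17.7 and 23.5 FPM).

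Versican (*Vcan*) is a large proteoglycan of loose matrix. *Vcan* was at 4.48, 7.66 and 6.71 FPM at 6w+dox, 3.45, 1.75, 1.88 and 3.85 at 12w+dox and 3.28, 2.64, 6.42, 5.55 and 6.80 in 12w-res, and it fell by 1.10 (SE 0.34, adjusted p = 0.0314) at 12w+dox. This call was lost with sex as a covariate, among females alone, with libraries scaled to totals, with a pseudocount of 1, and without 12w+dox replicate 2 or 3 or 6w+dox replicate 2 or 3. In 12w-res *Vcan* was not called against 6w+dox, and its difference from 12w+dox was 0.73 (SE 0.30, adjusted p = 0.0642), which was called higher among females alone. Perlecan (*Hspg2*) and the nidogens (*Nid1* and *Nid2*), which knit laminin to type IV collagen, rose by 1.55, 1.40 and 1.14 in 12w-res against 12w+dox (adjusted p = 3.16e-04, 0.00114 and 0.0107). *Nid1* was at 13.2, 14.9 and 14.3 FPM at 6w+dox, 24.1, 13.1, 9.89 and 29.8 at 12w+dox and 35.6, 41.4, 61.3, 42.9 and 58.8 in 12w-res, with a rise of 1.70 (SE 0.29, adjusted p = 5.66e-04) against 6w+dox. The 12w-res mice were above all dox-treated mice. *Nid2* was also called higher against 6w+dox, but its groups overlapped there. That call was lost without 6w+dox replicate 1 or 2 or 12w-res replicate 3 or 4. It was also lost with the replicate number as a block and with libraries scaled to totals. The call of *Nid2* against 12w+dox was lost without 12w+dox replicate 2 or 3 and with libraries scaled to totals. Agrin (*Agrn*) was not called, and its 12w-res levels (46.0, 67.6, 59.8, 53.2 and 68.1 FPM) were all below those at 12w+dox (76.0, 73.3, 70.8 and 118 FPM).

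Of the 4 mesenchyme markers, 3 rose in 12w-res against 12w+dox. Vimentin (*Vim*), an intermediate filament of mesenchymal and endothelial cells, was at 82.7, 73.1 and 40.2 FPM at 6w+dox, 65.1, 44.5, 35.7 and 51.6 at 12w+dox and 157, 118, 189, 168 and 143 in 12w-res, and rose by 1.66 (SE 0.21, adjusted p = 4.74e-05). *Pdgfra*, a receptor that marks fibroblasts, was at 5.01, 2.94 and 4.14 FPM at 6w+dox, 1.12, 0.7, 0.524 and 1.87 at 12w+dox and 2.96, 1.90, 6.69, 3.90 and 3.20 in 12w-res. Its 12w+dox mice were below all others, and the 6w+dox and 12w-res mice overlapped. *Pdgfra* fell by 1.59 (SE 0.36, adjusted p = 0.00725) at 12w+dox and rose by 1.43 in 12w-res (adjusted p = 0.00276). *Twist1*, a transcription factor of mesenchyme, rose by 1.08 in 12w-res (adjusted p = 0.00133). Its call was lost among females alone, with libraries scaled to totals, with a pseudocount of 1 and without 12w-res replicate 1. At 12w+dox against 6w+dox its difference was -0.77 (SE 0.24, adjusted p = 0.0345), under the minimum, and it was called lower with edgeR, DESeq2 and a pseudocount of 0.1. *S100a4*, named fibroblast-specific protein but also made by leukocytes, was called in no comparison.

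Of the 42 members, 10 were called in no long-term comparison, namely *Fbln1*, *Efemp2*, *Lox*, *Ltbp3*, *Ltbp4*, *Sparcl1*, *Tnxb*, *Matn2*, *Agrn* and *S100a4*. Among them *Sparcl1* was at 575, 417 and 332 FPM at 6w+dox, 546, 744, 543 and 628 at 12w+dox and 500.9, 747, 669.8, 764 and 680.3 in 12w-res. All 3 groups overlapped, and the difference between 12w-res and 6w+dox, 0.63 (SE 0.19, adjusted p = 0.0212), was under the minimum for a call. The remaining called members not described singly above, *Emilin1* and *Mfap4*, rose in 12w-res against 12w+dox by 1.18 and 1.23 (adjusted p = 3.68e-04 and 0.00733).

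Many members shared an order among the 12w+dox mice. In 30 of the 42 members replicates 1 (female) and 4 (male) were both above replicates 2 (female) and 3 (male), an order seen in 23.5% of all genes, and in 2 members both were below. This order is the one described above for the members *Thbs1* and *Tnc*, so the count describes these mice and is no test. The same order held for 14 of 15 collagens, 13 of 14 endothelial markers and 10 of 11 pericyte and smooth muscle markers. It held for 6 of 12 macrophage markers and 1 of 8 proliferation markers. The summed level of the members at 12w+dox ran from 1222 to 1883 FPM, beside 1410.3 to 1735 at 6w+dox and 2185 to 2875 in 12w-res. The 12w-res mice were thus all above the dox-treated mice in this sum. Within 12w-res, 20 members were higher in all 3 females than in both males (*Fn1*, *Bgn*, *Postn* and *Ltbp2* among them) and 1 (*Efemp2*) was higher in both males, where 13.3% and 10.7% of all genes separated by sex in these directions. Within 12w+dox, 2 members separated with females higher and 2 with males higher, beside 12.6% and 14.9% of all genes. The difference between the sexes in the effect of dox withdrawal was itself tested, and 0 of the 42 members passed (limma interaction term, smallest adjusted p = 0.483 for *Fbln1*). Of all 15315 genes, 13 had an adjusted p under 0.05 for this term. At an unadjusted p under 0.05 there were 3 of the 42 members, beside 654 of the 15315 genes. For *Fbln1* the fitted effect was 1.13 in females and -0.99 in males.

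**Figure D3:**
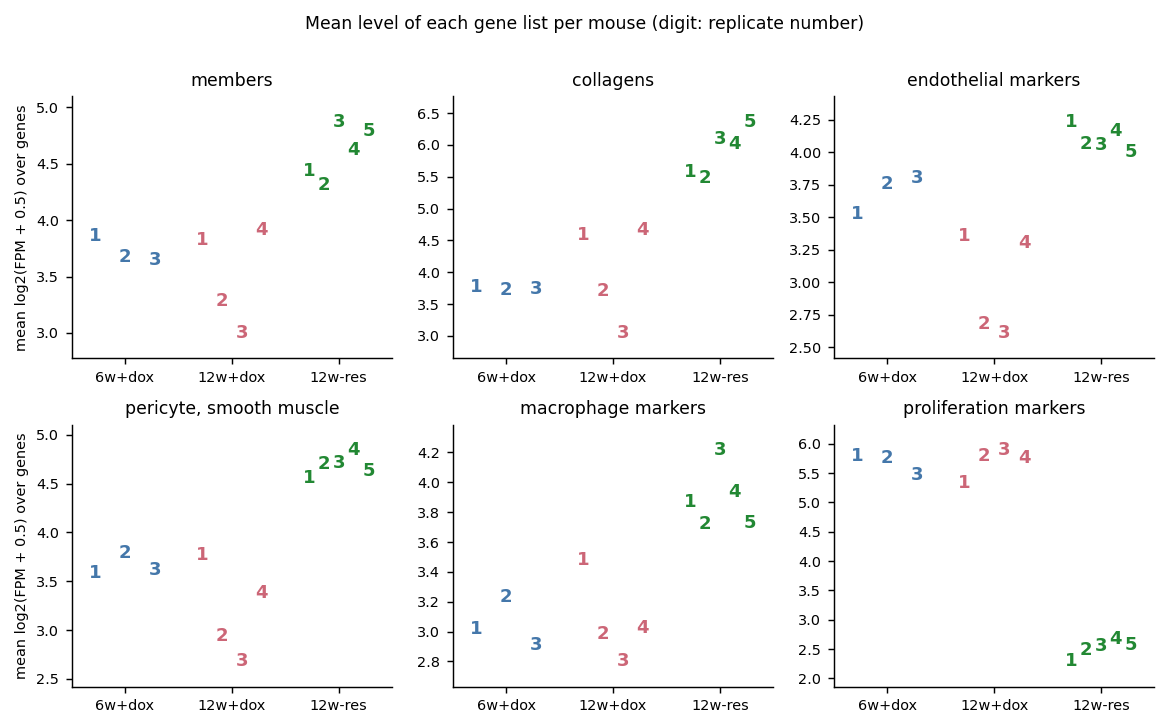
Mean log2(FPM + 0.5) over the genes of a list (y axis, own range per panel) in each long-term mouse. Digits are replicate numbers and colours are groups. In all panels but that of the proliferation markers, the 12w+dox replicates 1 and 4 stand above replicates 2 and 3 and all 12w-res mice stand above all 12w+dox mice. In the macrophage panel, 12w+dox replicate 4 (3.02) is only just above replicate 2 (2.98).

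Other matrix genes and the markers of stromal cells moved along with the members in 12w-res against 12w+dox. All 15 listed collagens rose (median 1.88), with *Col6a3* at 2.28 (adjusted p = 4.05e-05) and *Col5a1* at 2.16 (adjusted p = 2.96e-04), and *Col1a1*, whose locus carries the shRNA cassette in every mouse, at 2.64 (adjusted p = 3.18e-04). Of 8 other small proteoglycans, 5 rose, led by *Ogn* at 1.51 (adjusted p = 7.75e-04) and *Aspn* at 1.41 (adjusted p = 2.87e-05). Of 16 enzymes and chaperones of matrix assembly, 3 rose, namely *Adamts2*, a procollagen N-peptidase, at 1.71 (adjusted p = 4.35e-05), the transglutaminase gene *Tgm2* at 1.46 (adjusted p = 0.00150) and the collagen chaperone gene *Serpinh1* at 1.05 (adjusted p = 1.26e-04). Of 14 ligands, receptors and targets of TGF-beta, which is held by the products of *Ltbp1* and *Ltbp3*, 4 rose and 0 fell, with the target *Ctgf* at 1.29 (adjusted p = 3.68e-04) and the receptor gene *Tgfbr2* at 1.15 (adjusted p = 0.00174). The medians of these 3 lists were 1.10, 0.64 and 0.39, beside 0.00 over all genes.

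Markers of cells that make matrix rose in the same comparison in 11 of 11 cases for pericytes and smooth muscle, 10 of 14 for endothelium and 7 of 16 for fibroblasts (3 of which are collagens). The pericyte and smooth muscle markers summed to 196 to 248 FPM at 6w+dox, 143 to 339 at 12w+dox and 573 to 686 in 12w-res. The endothelial markers summed to 269.8 to 329.9, 106 to 196 and 305 to 396 FPM. The fibroblast markers, with the 3 collagens in the sum, came to 540.5 to 593, 318 to 534 and 817 to 1457 FPM. Each of these sums was above all 12w+dox mice in every 12w-res mouse, as the members were. Of 12 macrophage markers 2 rose (*Fcer1g* and *Mrc1*), with sums of 120.2 to 166 FPM at 12w+dox and 194 to 285 in 12w-res. Of 11 folliculostellate and stem cell markers 4 rose and 0 fell, with sums of 352 to 594 FPM at 12w+dox and 709 to 1244 in 12w-res, and of 10 markers of other hormone cells 2 rose (*Gh* and *Prl*). All 8 proliferation markers fell. Between 6 and 12 weeks of dox, 5 of 16 fibroblast markers, 5 of 14 endothelial markers, 2 of 11 pericyte and smooth muscle markers, 6 of 11 folliculostellate and stem cell markers and 7 of 9 markers of the neural lobe fell, as did 8 of the 42 members. Of 10 markers of other hormone cells 6 fell in the same interval (median -2.82, *Gh* and *Prl* among them), with sums of 58704 to 94209.6 FPM at 6w+dox, 1219.6 to 13074 at 12w+dox and 17366 to 35015 in 12w-res. The neural lobe markers summed to 127 to 249.9 FPM at 6w+dox, 54.4 to 66.4 at 12w+dox and 70.2 to 85.0 in 12w-res, with *Avp*, the vasopressin gene of axons ending there, at -3.99 (adjusted p = 1.36e-04). In 12w-res against 6w+dox, 14 of 15 collagens, 5 of 11 pericyte and smooth muscle markers, 2 of 14 endothelial and 4 of 16 fibroblast markers rose. The collagen genes *Col1a1* and *Col3a1* were among these 4, and 2 fibroblast markers (*Thy1* and *Ly6a*) fell. None of these markers was at 0 in any long-term mouse, and the part that the makeup of the tissue has in the members' differences was not tested.

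In the first days after dox withdrawal, few members moved past the threshold. At 1d -dox against 16w +dox, 0 of 39 members were called, beside 0.00716% and 0.0358% of the 13958 genes tested, and with no minimum difference 2 (*Sparc* and *Hspg2*) had an adjusted p under 0.05 (limma, both lower). At 3d -dox 0 were called, beside 0.0788% and 0.0502%. At 5d -dox 1 fell (*Sparc*), beside 0.086% of genes called higher and 0.107% lower, and at 5d -dox against 1d -dox 0 were called, beside 0.00716% and 0.00716%. Unadjusted, 10, 4, 10 and 1 of the 39 had a p under 0.05 in these comparisons, in limma's fit across all genes, beside 13.1%, 16.6%, 13.5% and 6.33% of all genes. The 10 at 1 day and the 10 at 5 days were all lower. The medians of the members were -0.38 at 1 day, -0.02 at 3 days and -0.36 at 5 days against 16w +dox and -0.00 for 5 days against 1 day, beside 0.00, 0.01, 0.00 and 0.00 over all genes. Without 16w +dox replicate 2 the medians were -0.22 at 1 day, 0.07 at 3 days and -0.22 at 5 days, and the 3-day median was also above 0 without 3d -dox replicate 2 (0.10) or 3 (0.09). DESeq2 and edgeR on the recovered reads called 0 members at 1 day and 0 between 5 days and 1 day, and at 3 days edgeR called 0 and DESeq2 1 (*Vcan*, higher).

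In 13 members every 1d -dox mouse was below every 16w +dox mouse and in 0 above, where 5.6% and 5.6% of genes separated in these directions. At 5d -dox 13 members separated downward and 0 upward, beside 9.64% and 9.64%. At 3d -dox 0 separated downward and 1 upward (*Fbln5*), beside 11% and 10.6%, and between 5d -dox and 1d -dox 1 was lower (*Vcan*) and 1 higher (*Ltbp4*), beside 3.51% and 4.29%. Since the mice at 1 and 5 days were female and the 16w +dox mice male, the effects of sex and of dox withdrawal cannot be told apart there, while the 3d -dox comparison is between males and that of 5d -dox with 1d -dox between females. All 3 comparisons with 16w +dox share the same 3 control mice.

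*Sparc* was at 17.7, 19.4 and 17.9 FPM at 16w +dox, 7.55, 8.58, 12.6 and 8.63 after 1 day off dox, 24.5, 15.9 and 19.8 after 3 days and 8.58, 8.86 and 8.44 after 5 days. All females were below all males, and the 3d -dox males lay on both sides of the 16w +dox males. The differences from 16w +dox were -0.96 (SE 0.15, adjusted p = 0.0373) at 1 day and -1.05 (SE 0.16, adjusted p = 0.0121) at 5 days. The call at 5 days, close to the minimum difference, was lost without 16w +dox replicate 1 and without each of the 3 5d -dox mice. *Hspg2* was at 19.8, 30.6 and 20.7 FPM at 16w +dox, 11.9, 10.8, 14.0 and 12.0 after 1 day, 33.2, 22.6 and 24.3 after 3 days and 13.8, 11.8 and 13.1 after 5 days, again with all females below all males. Its differences were -0.91 (SE 0.15, adjusted p = 0.0420) at 1 day and -0.83 (SE 0.16, adjusted p = 0.0403) at 5 days, under the minimum for a call. *Fn1* was at 41.2, 67.5 and 35.1 FPM at 16w +dox, 23.8, 29.6, 28.3 and 11.4 after 1 day, 49.0, 34.3 and 15.1 after 3 days and 12.95, 26.6 and 22.1 after 5 days, with differences of -1.06, -0.64 and -1.21 from 16w +dox that were not called (adjusted p = 0.268, 0.463 and 0.228). *Tnc*, with the largest difference at 1 day, -1.20 (SE 0.56, adjusted p = 0.384), had 1 of the 16w +dox mice far above the rest (1.77, 10.8 and 1.74 FPM). *Nid1* had a difference of -1.004 (SE 0.21, adjusted p = 0.0576) at 5 days and was not called.

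At 3d -dox the largest differences, none of them called, were those of *Vcan*, 1.08 (SE 0.36, adjusted p = 0.170), and *Tnxb*, 0.69 (SE 0.29, adjusted p = 0.255), beside that of *Fn1* given above. *Vcan* stood at 4.82, 3.14 and 14.3 FPM in the 3d -dox mice and 2.12, 3.85 and 2.17 in the 16w +dox mice, so that replicate 3 of 3d -dox alone was far above the rest. Between 5d -dox and 1d -dox the largest were *Lox*, 0.40 (SE 0.24, adjusted p = 0.792), *Tnxb*, 0.39 (SE 0.28, adjusted p = 0.826), and *Tnc*, 0.36 (SE 0.56, adjusted p = 0.923). Each of these had overlapping groups. Vessel markers were lower at 1 and 5 days, as were most members. The endothelial markers summed to 40.7 to 63.6 FPM at 16w +dox, 23.2 to 30.7 after 1 day, 37.7 to 65.7 after 3 days and 17.4 to 24.8 after 5 days. The pericyte and smooth muscle markers summed to 64.1 to 105, 32.2 to 47.7, 56.2 to 86.1 and 29.4 to 44.9 FPM, and the collagens to 219 to 244, 99.02 to 149.8, 158 to 307 and 95.6 to 141 FPM. In all 3 sums the females were below the 16w +dox males. At 5d -dox, 3 of 14 endothelial markers fell (*Cdh5*, *Flt1* and *Esam*), as did 3 of 10 pericyte and smooth muscle markers and 1 of 15 collagens (*Col4a1*), and at 1d -dox 1 endothelial marker (*Cdh5*) fell. Markers of other hormone cells, which differ between the sexes in the normal gland, had medians of -1.92 at 1 day, 0.97 at 3 days and -1.98 at 5 days. Macrophage markers had medians of -0.34, 0.18 and -0.43 at these times, and fibroblast markers -0.08, 0.02 and -0.46. Those of folliculostellate and stem cell markers were 0.08, 0.08 and 0.29. Of the vessel markers *Cldn5* was at 0 in at least 1 short-term mouse and no other was, and their part in the members' differences was not tested.

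**Figure D4:**
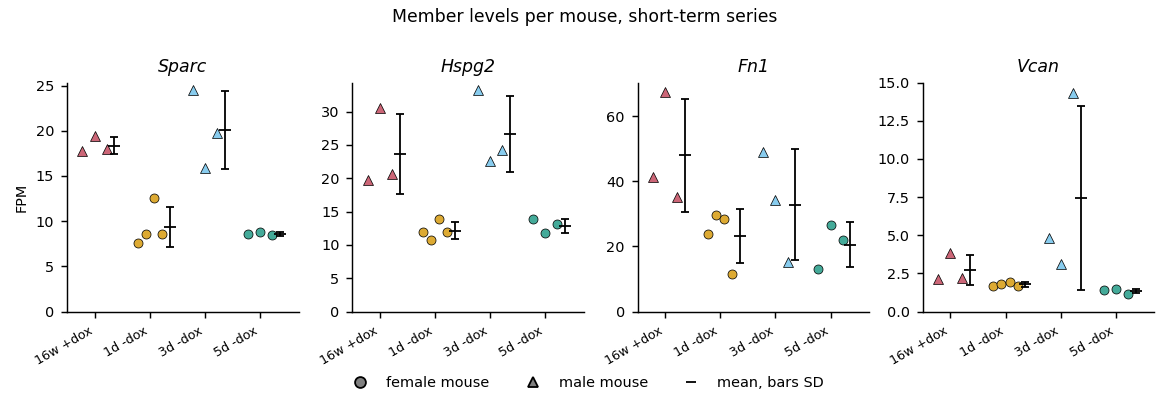
Level (FPM, y axis from 0, own range per gene) of *Sparc*, *Hspg2*, *Fn1* and *Vcan* in each short-term mouse by group. Circles are females, triangles are males, and the bar beside each group is the mean with SD. Females, at 1 and 5 days, lie below the males for *Sparc* and *Hspg2*, and 1 mouse at 3d -dox stands apart for *Vcan*.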

How the data were processed

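RNA from 25 sh*Rb* mouse pituitaries was sequenced as paired-end reads after poly(A) enrichment (long-term, 12 mice) or rRNA depletion (short-term, 13 mice). The authors mapped reads to mm10 with STAR, filtered RefSeq genes on a minimum of 10 reads in over 50% of any condition's samples, and deposited a signal scaled by DESeq2 size factors (FPM) for each gene and mouse. The counting tool and the use of strand are not given in the sources used here, so reads shared with an overlapping or antisense gene cannot be told apart. Every value (100%) came out as a whole number of reads within 0.1 of a read, so that reads could be recovered. The 4 lines of the short-term table that name no gene (68.8% to 75.0% of a library) and 2 of the long-term table were left out, and 0 per-sample columns were unused.

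Groups came from the sample labels. The main test was limma 3.58.1 (R 4.3.3, trended prior) on log2(FPM + 0.5) with all groups of an experiment in 1 fit and Benjamini-Hochberg adjustment over all genes passing the 10-read filter, and a gene was called where the adjusted p was under 0.05 with a difference beyond 1 in size. Tests with edgeR 4.0.16 and DESeq2 1.42.0 on the recovered reads were alternatives, beside other pseudocounts (0.1 and 1), scalings and filters, no minimum difference, only the groups compared, a replicate block, sex as a covariate, females only, and each mouse left out in turn. On simulated reads with 200 changed genes, limma recovered 193 of them in 12w-res against 12w+dox (14084 genes) and 194 in 3d -dox against 16w +dox (12550 genes). Recovery at the members' own differences and read counts was not tested. The members and all lists were chosen with earlier results of these data known. Members are described by role, with full values for at most 12 called members of a comparison by size of difference, the 3 largest where none was called, and at most 3 genes of other lists; other named members illustrate overlap, sex or a lost call and were chosen after their values were seen. Replicate libraries differed by more than counting error in all 19 long-term and 15 short-term within-group pairs, and nothing says the mice were independent of litter or batch. The values of 1 gene of another list are not reported here. Coordinates and promoters are from RefSeq (GRCm38.p6), transcript lengths from GENCODE vM21. Depth limits the genes with few reads most.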

Additional observations from a re-analysis of the deposited data

Results flagged for a closer look

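In 5 of 123 groups of 4 or 5 mice tested over the members, 1 mouse stood apart from the others of its group by Dixon's criterion, which chance alone meets in about 1 in 20 groups. *Sparc* in 12w-res replicate 2 (male) was at 216 FPM, below the 273 to 293 FPM of the other 12w-res mice. *Emilin1* in 12w-res replicate 1 (male) was at 11.02 FPM, where the others were at 16.8 to 19.0 FPM. *Agrn* in 12w+dox replicate 4 (male) was at 117.6 FPM, above the others at 70.8 to 76.0 FPM. *S100a4* in 12w+dox replicate 1 (female) was at 0.872 FPM, under the 1.54 to 1.62 FPM of the others. *Lox* in 1d -dox replicate 2 (female) was at 25.04 FPM, over the 16.1 to 17.3 FPM of the other mice at that time. The 5 values came from 5 mice.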

How the results depend on the processing

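The 72 called or printed log2 differences of members kept their sign in all 1477 values recomputed under the alternatives. Changing the filter, the minimum difference or the groups fitted leaves these estimates as they were. The values under those settings therefore could not change sign. Between 12w+dox and 6w+dox, 1 member was called higher with a pseudocount of 1, with at least 10 reads in every sample and among females only, 5 were called lower with libraries scaled to totals and among females only, and leaving out 1 mouse gave 5 (without 12w+dox replicate 2) to 11 (without replicate 4) lower. In 12w-res against 12w+dox, scaling to totals gave 13 higher and 2 lower, with 244 of all genes higher and 3364 lower in place of 955 and 772, having no minimum difference gave 1 lower, and leaving out 1 mouse gave 25 to 28 higher and 0 to 1 lower (*Mfap2*, without 12w+dox replicate 1). In 12w-res against 6w+dox, leaving out 1 mouse gave 16 to 19 higher and 1 to 2 lower; *Ecm1*, *Nid2*, *Fbln5* and *Vim* were the higher calls so lost, and *Loxl3* was called higher in addition with edgeR, and *Loxl3* and *Mfap4* with DESeq2, with sex as a covariate, among females only and with a pseudocount of 0.1. At 1d -dox against 16w +dox, no minimum difference gave 2 lower and leaving out 1 mouse 0 to 1 lower (*Sparc*, without 1d -dox replicate 3). At 3d -dox DESeq2 called 1 higher (*Vcan*). At 5d -dox against 16w +dox, 2 were lower with a pseudocount of 0.1 (adding *Nid1*), 4 with DESeq2 (adding *Loxl1*, *Nid1* and *Ltbp1*), 2 with no minimum difference and 0 to 2 with 1 mouse left out. Apart from the lost minimum, the tested genes or the mice left out, the cause of these changes was not tested. A fit with the replicate number as a replicate block called 27 members higher in 12w-res against 12w+dox and 16 against 6w+dox. The other counts of members were as before, although *Efemp1* gave way to *Tnxb* among the 2 called lower against 6w+dox. Deviations of mice with the same number correlated at -0.17 to 0.24 (10 long-term pairs) and -0.21 to 0.17 (18 short-term pairs). Between mice of different numbers and groups these values were -0.33 to 0.32 and -0.17 to 0.33. Pairing by number was not seen in these ranges, and a shared litter or batch was not tested. Genes with under 10 reads in some mouse (2 long-term and 8 short-term members) are limited by depth.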
